A study of Mus musculus with 6 samples.

Results

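Integrin chains and the cytoplasmic proteins that tie them to actin were followed at the RNA level in primary mouse bone marrow stromal cells that carried the Pth1rΔNLS allele and in wild-type (WT) cells. The genes were taken by symbol: every listed Itga gene, the Itgb chains other than Itgb3, the talins, kindlins, tensins and parvins, ILK and the PINCH proteins (Lims1 and Lims2), the paxillin and zyxin relatives, vinculin, the alpha-actinins Actn1 and Actn4, the Ena/VASP proteins and the adhesion kinases with their scaffolds. Of 11896 genes in the table, 46 belonged to this set, 16 integrin chains and 30 cytoplasmic proteins. The same rule covers 11 further genes that were not analysed here (Fermt1, Itga2, Itga2b, Itga8, Itgad, Itgae, Itgb4, Itgb6, Itgb7, Itgb8 and Tns4). The rule reads symbols only, not measured values, but the genes were chosen with earlier results of these data known.

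The study held 6 RNA-seq libraries made from total RNA, 3 from Pth1rΔNLS cells and 3 from WT cells. Per the design text, the Pth1rΔNLS cells came from heterozygous mice, and the title of the study concerns the nuclear translocation of this parathyroid hormone receptor. Pth1r itself had 1.91, 1.72 and 2.99 FPKM in the Pth1rΔNLS libraries, against 7.98, 4.72 and 6.24 FPKM in the WT libraries, a gene level that does not read the allele (log2 fold change -1.19, SE 0.22, limma adjusted p = 0.014). The labels give no age, sex, treatment or culture time, and they do not say whether the libraries of a genotype came from separate mice, so p-values measure the spread between these libraries, which may be technical. Levels are FPKM, fragments per unit of transcript length scaled to the mapped fragments of the library, summed over the listed transcripts of a gene, so that levels of different genes can be compared per length.

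Integrins are surface receptors made of 1 alpha and 1 beta chain. The alpha chain largely sets the ligand: collagen, laminin, RGD-bearing proteins such as fibronectin and vitronectin, or, for the leukocyte chains that pair with Itgb2, counter-receptors and opsonised particles. Talins and kindlins bind the beta tail and switch the receptor on, the ILK, PINCH and parvin complex and the paxillin family build the plaque, and vinculin, alpha-actinins, tensins, zyxin relatives and Ena/VASP proteins couple it to actin. Stromal cells of bone marrow use these plaques on collagen and fibronectin, whereas macrophages express the beta2 integrins together with kindlin-3 (Fermt3).

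The labelled cell type was checked against lists of markers. Of 9 stromal markers tested, 8 were lower in Pth1rΔNLS cells, and their summed level was 1574.5 to 1696 FPKM in Pth1rΔNLS libraries against 3505.5 to 4013 FPKM in WT libraries, led by Sparc, a matrix protein of mesenchymal cells. Of 16 macrophage markers tested, 13 were higher and none was lower, with sums of 9053 to 9599 FPKM in Pth1rΔNLS libraries against 6768 to 7062 FPKM in WT libraries, led by Lyz2, the lysozyme of myeloid cells. No macrophage marker was at 0 in any library. Of 7 smooth muscle markers, 6 were lower. Of 2 osteoclast markers tested, Atp6v0d2 was higher and Ctsk lower. The 2 megakaryocyte markers tested, Pf4 and Ppbp, were higher, with Pf4 at 511 ± 46.1 FPKM in Pth1rΔNLS cells and 361 ± 54.8 FPKM in WT cells. Of 3 endothelial markers tested, Cdh5 and Emcn were lower. The single markers tested for erythroid and B cells were Epor, which was higher, and Ebf1, which was lower. The 2 neutrophil markers listed summed to 0.374 to 1.48 FPKM in Pth1rΔNLS libraries and 0.689 to 1.56 FPKM in WT libraries, and the T cell and mast cell markers were not analysed here. In bulk RNA, fewer cells of a type and less RNA per cell cannot be told apart, which holds for every result below. Mitochondrially encoded transcripts took 18.2%, 12.8% and 10.6% of FPKM in Pth1rΔNLS libraries 1, 2 and 3 and 6.47%, 12.8% and 9.33% in WT libraries 1, 2 and 3, so that Pth1rΔNLS 1 and WT 1 lie at the ends.

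Of the 45 genes that reached a mean of 1 FPKM, 8 rose and 13 fell in Pth1rΔNLS cells at an adjusted p under 0.05, and 24 did not pass. The test was limma on log2(FPKM + 1), adjusted with Benjamini-Hochberg over the 10905 genes tested. The share past the threshold was 46.7%, against 17.3% of all genes tested, where 6.94% rose and 10.4% fell. The median log2 fold change of the 45 genes was -0.21, against -0.01 over all genes tested. Libraries of the genotypes did not overlap for 27 of the 45 genes (60%), 9 of them higher and 18 lower in Pth1rΔNLS cells, against 36.6% of all genes tested, 16.6% higher and 20% lower. With 1 library left out, 3 to 9 of these genes rose and 9 to 12 fell. The balance also moved with the scaling. With mitochondrial transcripts removed, 9 rose and 10 fell, and the median log2 fold change over all genes tested was 0.02. After rescaling to a shared total, 6 rose and 13 fell, and that median was -0.04. The part of the macrophage and stromal marker shifts given above in these results was not tested. Of the 21 genes past the threshold, 12 stayed past it whichever library was left out: Itga11, Itga1, Itga6, Itgb2, Vcl, Actn1, Tgfb1i1, Tln2, Fermt2, Enah, Lims2 and Parvb.

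**Figure D1:**
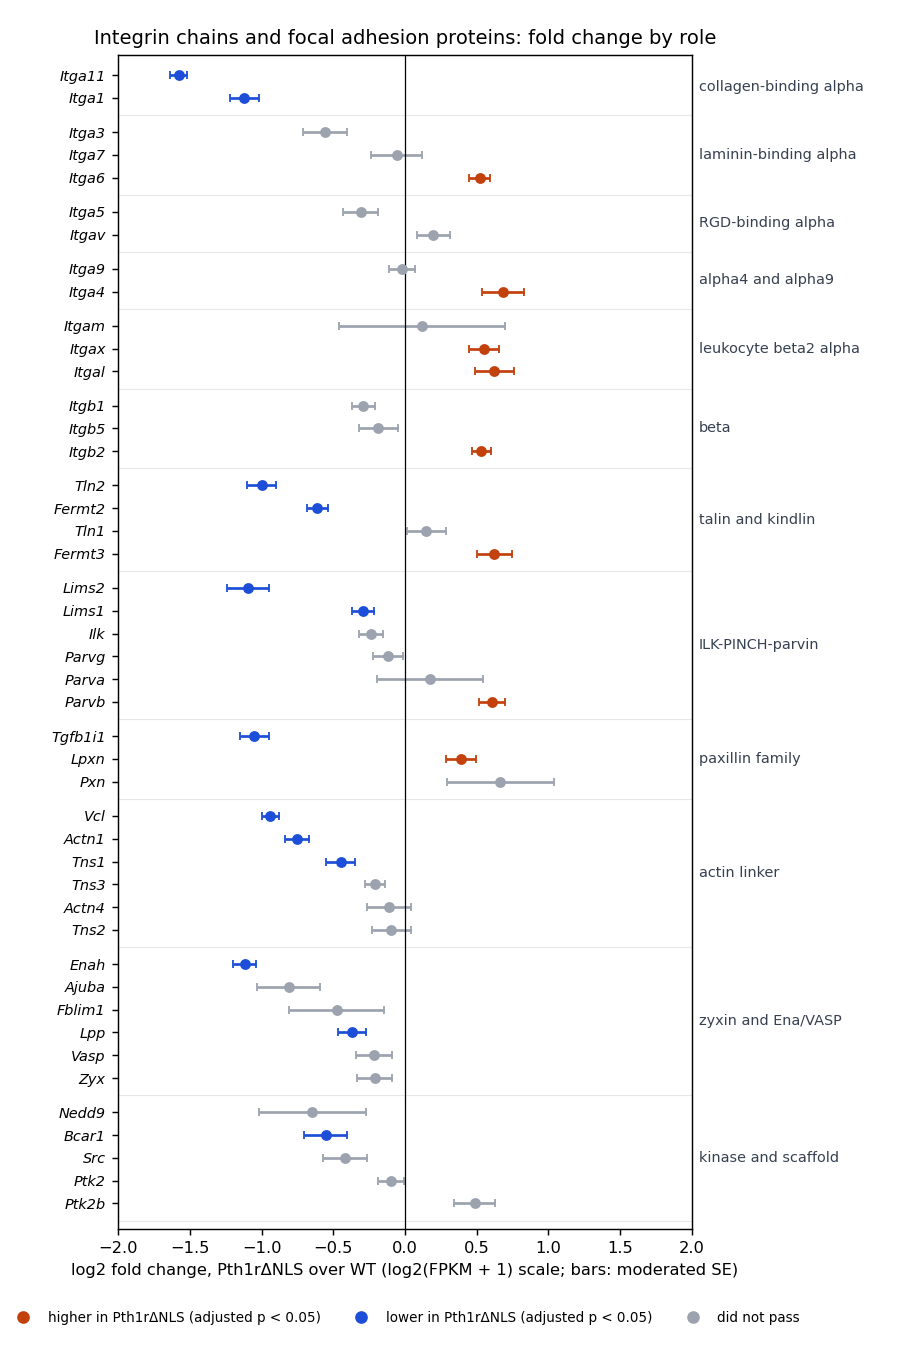
Log2 fold change of the 45 tested genes, Pth1rΔNLS over WT, on the log2(FPKM + 1) scale, ordered by role, with bars for the moderated standard error from limma (3 libraries per genotype). Of the coloured points 8 lie right of 0 and 13 left of it, from -1.58 for Itga11 to 0.69 for Itga4. Grey points did not pass the threshold.

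The collagen-binding alpha chains were the most strongly lowered integrins. Itga11, the collagen I receptor chain of fibroblasts and osteogenic stroma, had 34.1, 33.5 and 36.1 FPKM in the Pth1rΔNLS libraries, against 106, 104 and 105 FPKM in the WT libraries. The genotypes lay far apart and the libraries of each nearly coincided. The mean was 34.6 ± 1.34 FPKM in Pth1rΔNLS cells and 105 ± 1.42 FPKM in WT cells (SD, n = 3 each), which limma put at -1.58 on the log2 scale (SE 0.06, adjusted p = 9.03e-05). Itga11 lies on chromosome 9 at 62677826 to 62783982 (mm10, plus strand).

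Itga1, whose alpha1 chain prefers basement membrane collagen, had 3.18, 3.28 and 3.31 FPKM in the Pth1rΔNLS libraries, against 8.67, 8.77 and 7.40 FPKM in the WT libraries. All 3 Pth1rΔNLS values lay below all 3 WT values, with a limma estimate of -1.12 on the log2 scale (SE 0.10, adjusted p = 0.00109). The gene spans 114953096 to 115101964 on chromosome 13 (mm10, minus strand), where 6.25% of its exonic bases are shared with Gm49395 on the same strand. Itga10, the cartilage collagen receptor chain, stayed under the level filter and was not tested, with 0.386 ± 0.0807 FPKM in Pth1rΔNLS cells and 0.621 ± 0.126 FPKM in WT cells. Although both Itga11 and Itga1 fell, the ratio of the first to the second averaged 10.6 in Pth1rΔNLS cells and 12.8 in WT cells, so Itga11 remained the dominant collagen-binding chain in both.

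Of the laminin-binding alpha chains, Itga6 rose while Itga3 and Itga7 did not pass. Itga6, the alpha6 chain of laminin receptors, had 62.7, 62.7 and 67.8 FPKM in the Pth1rΔNLS libraries, against 46.6, 45.1 and 42.1 FPKM in the WT libraries. The genotypes did not overlap, with a limma estimate of 0.52 on the log2 scale (SE 0.07, adjusted p = 0.00468). Itga3 had 1.89, 2.76 and 3.01 FPKM in the Pth1rΔNLS libraries, against 3.91, 4.10 and 4.54 FPKM in the WT libraries. Its libraries did not overlap either, in the opposite direction, but the adjusted p was 0.0506 (log2 fold change -0.56, limma), and it passed in 4 other settings, at 0.0301 to 0.0489. Itga7, the muscle laminin receptor chain, stood near the filter with 0.872, 1.16 and 1.06 FPKM in the Pth1rΔNLS libraries and 1.36, 0.647 and 1.41 FPKM in the WT libraries, and the genotypes overlapped.

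Itga6 is made with alternative cytoplasmic tails, known as A and B, and the listed transcripts Itga6-201 and Itga6-202 end in different last coding exons. The coding part of each is printed because the test over transcripts, given next, passed for the first and not for the second. They start alike and then diverge, and capitals mark the stop codon. Itga6-201 uses exon 25 (chr2:71853534-71853641, mm10, plus strand) and Itga6-202 uses exon 26 (chr2:71855854-71856015, mm10, plus strand).
Itga6-201: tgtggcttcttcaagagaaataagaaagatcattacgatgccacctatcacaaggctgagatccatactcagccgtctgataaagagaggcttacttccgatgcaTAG
Itga6-202: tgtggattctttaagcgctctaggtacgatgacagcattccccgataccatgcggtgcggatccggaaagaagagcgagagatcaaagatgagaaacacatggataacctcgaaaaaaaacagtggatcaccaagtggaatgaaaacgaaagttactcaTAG

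Itga6-201 had 53.4, 50.9 and 57.1 FPKM in the Pth1rΔNLS libraries, against 38.5, 35.8 and 34.7 FPKM in the WT libraries. In the test over single transcripts it rose with a log2 fold change of 0.56 (SE 0.07, limma adjusted p = 0.0164). Itga6-202 had 6.84, 8.51 and 6.81 FPKM in the Pth1rΔNLS libraries, against 6.27, 7.12 and 5.76 FPKM in the WT libraries, which overlapped (limma adjusted p = 0.538). The share of Itga6-201 in the sum of both was 88.7%, 85.7% and 89.3% in the Pth1rΔNLS libraries and 86.0%, 83.4% and 85.7% in the WT libraries. These shares overlapped, so no change in the use of the tails was seen beyond the spread between libraries.

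Neither RGD-binding alpha chain passed. Itga5, the fibronectin receptor chain, had 64.0, 75.4 and 77.7 FPKM in the Pth1rΔNLS libraries, against 98.8, 76.8 and 94.9 FPKM in the WT libraries. The genotypes overlapped through WT 2 (log2 fold change -0.31, limma adjusted p = 0.143), and the adjusted p was 0.0483 without WT 2 and 0.048 with array weights. Itgav, the alpha chain of the vitronectin receptors, had 28.2, 21.6 and 27.7 FPKM in the Pth1rΔNLS libraries, against 21.5, 23.6 and 21.8 FPKM in the WT libraries, and the genotypes overlapped (limma adjusted p = 0.311). Of the closely related alpha4 and alpha9 chains, which bind VCAM-1, fibronectin and other matrix proteins, Itga4 rose. It had 19.4, 15.4 and 16.3 FPKM in the Pth1rΔNLS libraries, against 8.996, 12.5 and 9.30 FPKM in the WT libraries, without overlap (log2 fold change 0.69, SE 0.15, limma adjusted p = 0.0245). Leaving out any library other than WT 2 ended that call, with adjusted p between 0.0118 and 0.0807 over the 6 fits. Itga9 had 6.87, 6.33 and 7.20 FPKM in the Pth1rΔNLS libraries and 6.85, 6.64 and 7.20 FPKM in the WT libraries. Its values overlapped throughout, with a log2 fold change of -0.02 (SE 0.09).

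Of the beta2 integrins of leukocytes, the beta chain Itgb2 and 2 of its 3 alpha partners analysed here, Itgal and Itgax, rose in Pth1rΔNLS cells. The third, Itgam, did not pass, and Itgad was not analysed here. The macrophage marker sums given above were also higher there, and their part in the result was not tested. Itgb2, the beta chain that all of them share, had 130.5, 141 and 143 FPKM in the Pth1rΔNLS libraries, against 99.0, 91.7 and 94.9 FPKM in the WT libraries. The groups were separate, at 138 ± 6.76 FPKM in Pth1rΔNLS cells and 95.2 ± 3.64 FPKM in WT cells (SD, n = 3 each), with a limma estimate of 0.53 on the log2 scale (SE 0.07, adjusted p = 0.00359). The gene lies on chromosome 10 at 77530252 to 77565708 (mm10, plus strand). Itgal, the alpha chain of LFA-1, which binds ICAM-1, had 8.45, 8.20 and 10.0 FPKM in the Pth1rΔNLS libraries, against 5.93, 4.43 and 5.96 FPKM in the WT libraries. It rose by 0.62 on the log2 scale (SE 0.14, limma adjusted p = 0.0263). The call held without WT 2, at 0.0426, and was lost without any other single library, at 0.0519 to 0.0856.

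Itgax, the CD11c chain of dendritic cells and some macrophages, had 2.97, 2.80 and 3.10 FPKM in the Pth1rΔNLS libraries, against 1.88, 1.64 and 1.59 FPKM in the WT libraries. The libraries were tight within each genotype and did not overlap (log2 fold change 0.55, SE 0.11, limma adjusted p = 0.0164). It was lost without WT 3 or any 1 of the Pth1rΔNLS libraries, at up to 0.0621.

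Itgam, the CD11b chain of macrophages and granulocytes, stood apart from its relatives by its spread. It had 42.7, 20.3 and 51.7 FPKM in the Pth1rΔNLS libraries, against 38.3, 63.4 and 14.1 FPKM in the WT libraries, and it did not pass. Its standard error was the largest of the integrin chains tested (log2 fold change 0.12, SE 0.58, limma adjusted p = 0.915). The table also lists Gm49368, a gene model on the same strand of chromosome 7 (128062683 to 128128160, mm10) that holds 70.0% of the exonic bases of Itgam (128062640 to 128118491). Gm49368 had 40.3, 61.4 and 34.3 FPKM in the Pth1rΔNLS libraries, against 17.8, 0.0017 and 38.4 FPKM in the WT libraries. Within each genotype it was high where Itgam was low.

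The sum of Itgam and Gm49368, an addition made after their values were seen, was 83.0, 81.6 and 86.0 FPKM in the Pth1rΔNLS libraries, against 56.1, 63.4 and 52.5 FPKM in the WT libraries. The sums were tight, 83.6 ± 2.23 FPKM in Pth1rΔNLS cells and 57.3 ± 5.53 FPKM in WT cells (SD, n = 3 each), and did not overlap. With the sum in place of Itgam, the fit over all genes gave a log2 fold change of 0.54 (SE 0.08, limma adjusted p = 0.00786, and 0.00534 to 0.0347 when single libraries were left out). The ratio of this sum to Itgb2 was 0.606 ± 0.0284 in Pth1rΔNLS cells and 0.604 ± 0.0757 in WT cells. How reads were divided between the overlapping models was not tested.

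Itgb1, the beta chain of most matrix-binding integrins, was the most abundant gene of the set. It had 386, 376 and 389.9 FPKM in the Pth1rΔNLS libraries, against 436, 515 and 463 FPKM in the WT libraries. All Pth1rΔNLS libraries lay below all WT libraries, but the adjusted p was 0.0527 (log2 fold change -0.29, SE 0.08, limma), and it passed in 3 other settings, at 0.0488 with a filter of 5 FPKM, 0.0370 after rescaling to a shared total and 0.0271 with array weights. Itgb5, which pairs with the alphav chain, had 100.1, 125 and 130.5 FPKM in the Pth1rΔNLS libraries and 149, 115 and 141 FPKM in the WT libraries, and the genotypes overlapped. Itgb3, the beta chain of the osteoclast vitronectin receptor and no member of the set, averaged 18.2 ± 1.75 FPKM in Pth1rΔNLS cells and 12.4 ± 0.912 FPKM in WT cells (log2 fold change 0.52, limma adjusted p = 0.0168).

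**Figure D2:**
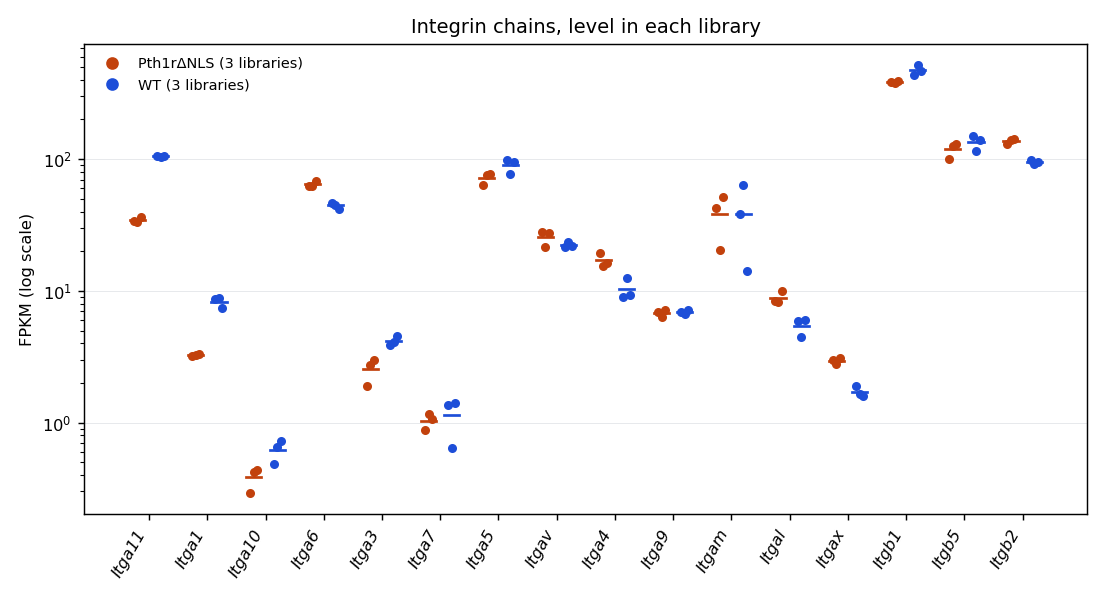
Level of the 16 integrin chains in each library in FPKM on a log axis, with a bar at the mean of the 3 libraries of each genotype (Pth1rΔNLS left of WT for each gene). Itga11 shows the widest gap between genotypes, 34.6 FPKM in Pth1rΔNLS cells against 105 FPKM in WT cells, and Itgam the widest scatter within them.

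The make-up of the integrin RNA pool shifted accordingly. With Gm49368 counted as Itgam, collagen-binding chains made up 11.9%, 11.8% and 11.7% of alpha chain FPKM in the Pth1rΔNLS libraries, against 31.5%, 32.1% and 32.0% in the WT libraries. The beta2-partner chains made up 29.9%, 29.4% and 29.2% in the Pth1rΔNLS libraries, against 17.4%, 19.7% and 16.9% in the WT libraries. Laminin-binding chains took 21.001 ± 0.252% in Pth1rΔNLS cells and 13.9 ± 0.344% in WT cells, and RGD-binding chains 30.3 ± 0.992% in Pth1rΔNLS cells and 31.4 ± 2.47% in WT cells. The laminin-binding share was mostly Itga6, at 64.4 FPKM in Pth1rΔNLS cells and 44.6 FPKM in WT cells. Itga3 went the other way, at 2.55 FPKM in Pth1rΔNLS cells and 4.18 FPKM in WT cells. Each share also depends on the other classes in the sum, among them the lowered collagen-binding chains. Without Gm49368, the beta2-partner share was 17.7 ± 4.75% in Pth1rΔNLS cells and 13.3 ± 6.44% in WT cells, and the genotypes overlapped. The order of the classes in Pth1rΔNLS cells turned on this choice: without Gm49368 the laminin-binding share, 24.5 ± 1.52%, stood above that of the beta2 partners, and with it below. On the beta side, Itgb2 made up 21.6 ± 0.371% of the 3 beta chains in Pth1rΔNLS cells and 13.6 ± 0.89% in WT cells, and Itgb1 59.98 ± 2.27% in Pth1rΔNLS cells and 67.1 ± 3.86% in WT cells. These shares were chosen with the gene values known and are descriptions without a test.

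**Figure D3:**
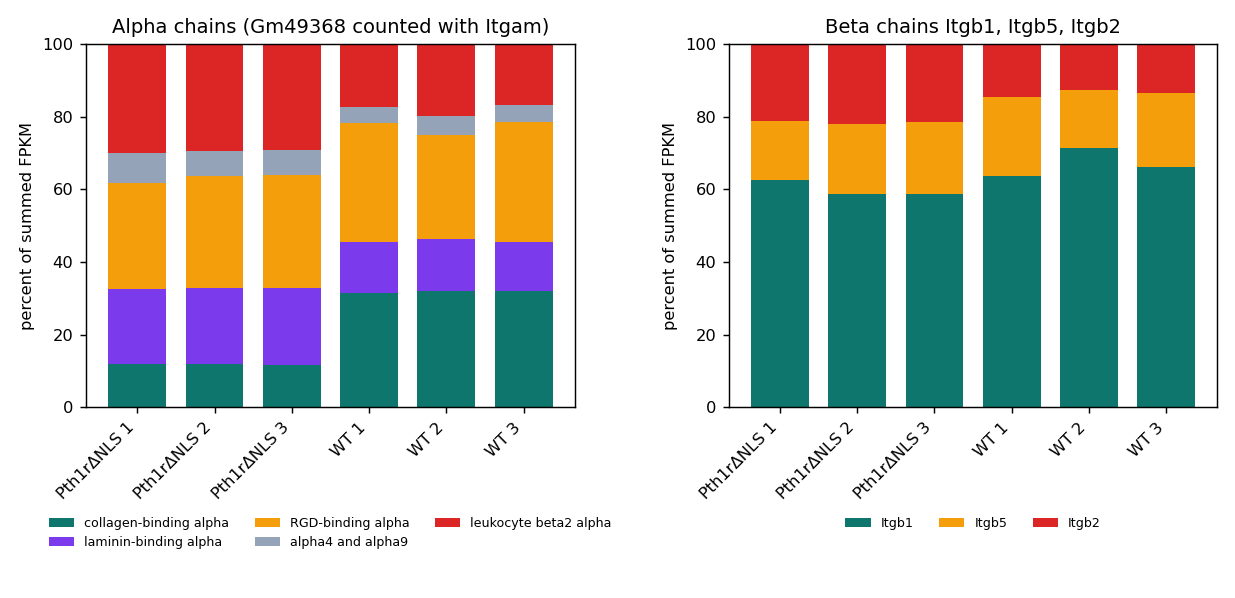
Share of each class in the summed FPKM of the alpha chains (left panel, with Gm49368 counted as Itgam) and of the 3 beta chains (right panel), 1 bar per library, in percent. The collagen-binding share lies between 11.7% and 11.9% in the Pth1rΔNLS libraries and between 31.5% and 32.1% in the WT libraries.

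Talins and kindlins split by relative. Tln1, the talin of all cells, had 95.98, 113 and 122 FPKM in the Pth1rΔNLS libraries and 111, 83.1 and 105 FPKM in the WT libraries, and the genotypes overlapped. Tln2, its relative in muscle, brain and other tissues, had 4.98, 5.62 and 5.24 FPKM in the Pth1rΔNLS libraries, against 12.6, 10.4 and 11.7 FPKM in the WT libraries. It fell by 1.00 on the log2 scale, with no overlap (SE 0.10, limma adjusted p = 0.00162).

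Fermt2, or kindlin-2, the kindlin of mesenchymal cells, had 53.0, 51.2 and 52.7 FPKM in the Pth1rΔNLS libraries, against 75.8, 87.7 and 78.5 FPKM in the WT libraries. It fell, with a log2 fold change of -0.61 (SE 0.07, limma adjusted p = 0.00313). Fermt3, or kindlin-3, which blood cells use in its place, had 52.9, 62.2 and 63.8 FPKM in the Pth1rΔNLS libraries, against 40.9, 32.7 and 41.8 FPKM in the WT libraries. It rose, with a log2 fold change of 0.62 (SE 0.12, limma adjusted p = 0.0174), although the adjusted p was 0.0657 without Pth1rΔNLS 2 and 0.0644 without Pth1rΔNLS 3. Fermt3 matched or exceeded Fermt2 in the Pth1rΔNLS libraries and stood below it in every WT library.

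The promoters of Fermt2 and Fermt3, which moved in opposite directions, and of Vcl, the actin linker described below, are printed to show where a CArG box, the motif bound by serum response factor, stands. Each window runs from 250 bases before to 50 bases after the annotated start, 5′ to 3′ on the strand of the gene, from RefSeq (GRCm38.p6), and capitals mark the CArG box, searched as CC, then 6 letters A or T, then GG, a pattern that is the same on both strands. The windows are chr14:20929148-20929447 (plus strand) for Vcl, chr14:45530016-45530315 (minus strand) for Fermt2 and chr19:7019420-7019719 (minus strand) for Fermt3.
Vcl: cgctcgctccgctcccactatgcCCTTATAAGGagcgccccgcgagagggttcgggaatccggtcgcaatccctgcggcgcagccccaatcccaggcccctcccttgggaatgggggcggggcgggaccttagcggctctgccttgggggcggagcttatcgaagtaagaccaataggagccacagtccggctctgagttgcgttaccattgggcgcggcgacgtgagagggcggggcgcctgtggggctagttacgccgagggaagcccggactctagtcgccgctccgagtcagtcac
Fermt2: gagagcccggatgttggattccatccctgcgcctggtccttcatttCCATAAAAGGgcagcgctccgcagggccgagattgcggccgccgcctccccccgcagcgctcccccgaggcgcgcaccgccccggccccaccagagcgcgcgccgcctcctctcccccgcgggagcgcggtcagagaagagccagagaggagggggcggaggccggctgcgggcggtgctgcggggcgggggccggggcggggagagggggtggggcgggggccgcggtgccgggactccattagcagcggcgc
Fermt3: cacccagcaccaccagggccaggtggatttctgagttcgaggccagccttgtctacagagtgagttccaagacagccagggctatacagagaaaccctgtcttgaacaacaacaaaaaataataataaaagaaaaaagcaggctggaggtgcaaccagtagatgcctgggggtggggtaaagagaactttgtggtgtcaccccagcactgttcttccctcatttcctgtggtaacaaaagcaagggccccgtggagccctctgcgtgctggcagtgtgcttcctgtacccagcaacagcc

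A CArG box starts 227 bases before the start of Vcl and 204 bases before that of Fermt2. Of all 32851 windows in the table, 1.63% hold one. Windows were found for 35 of the 46 genes (43 windows), and of these Vcl and Fermt2 alone held the motif: 2 of the 10 matched genes that fell and none of the 5 that rose. The TEAD core GGAATG, on either strand, stood in windows of 7 of the 35 genes (14.7% of all windows), and Vcl held it too. The PU.1 core GAGGAA stood in 14 of the 35 genes (28.3% of all windows), 4 of the 10 that fell and 0 of the 5 that rose. The AP-1 site TGANTCA stood in 6 of the 35 genes (7.81% of all windows), 0 of the 10 that fell and 1 of the 5 that rose. The Sp1 box GGGCGG stood in 23 of the 35 genes (35.7% of all windows), 7 of the 10 that fell and 2 of the 5 that rose. A gene was counted if any of its windows held the motif, whereas the percentages are per window, so they are unlike measures. Differences between genes that fell and genes that rose were not tested. Motifs were counted separately, whether or not they overlapped. These matches are letters in a window, not measured binding.

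In the ILK, PINCH and parvin complex, Ilk itself did not pass. It had 33.2, 37.2 and 33.4 FPKM in the Pth1rΔNLS libraries and 40.0, 44.4 and 38.6 FPKM in the WT libraries, without overlap (log2 fold change -0.24, limma adjusted p = 0.109), and 70.6% of its exonic bases are shared with Taf10 on the opposite strand, which had 4.53 to 6.55 FPKM. Both PINCH genes fell. Lims2 had 2.65, 3.22 and 3.93 FPKM in the Pth1rΔNLS libraries, against 7.997, 7.08 and 9.20 FPKM in the WT libraries (log2 fold change -1.10, SE 0.15, limma adjusted p = 0.00493). Lims1, the more abundant PINCH gene, had 41.7, 42.3 and 42.9 FPKM in the Pth1rΔNLS libraries, against 48.6, 56.9 and 50.9 FPKM in the WT libraries. Its fall was small and near the threshold (log2 fold change -0.29, SE 0.08, limma adjusted p = 0.0458), and it was lost whichever library was left out, at 0.055 to 0.129.

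Of the parvins, which link ILK to actin, Parvb rose. It had 18.1, 20.1 and 20.002 FPKM in the Pth1rΔNLS libraries, against 12.6, 11.3 and 13.3 FPKM in the WT libraries (log2 fold change 0.61, SE 0.09, limma adjusted p = 0.00687). Its neighbour on chromosome 15, Parvg, the parvin of blood cells, had 4.38 ± 0.373 FPKM in Pth1rΔNLS cells and 4.82 ± 0.316 FPKM in WT cells, and did not pass. Parva had 32.1, 29.2 and 31.8 FPKM in the Pth1rΔNLS libraries, against 21.4, 52.6 and 18.0 FPKM in the WT libraries. WT 2 alone stood above the Pth1rΔNLS libraries, and the adjusted p was 0.794 with it and 0.0153 without it.

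The paxillin family showed all 3 outcomes. Tgfb1i1, or Hic-5, a paxillin relative of fibroblasts and smooth muscle, had 26.8, 24.2 and 24.7 FPKM in the Pth1rΔNLS libraries, against 47.6, 52.4 and 60.7 FPKM in the WT libraries. The genotypes lay well apart (log2 fold change -1.05, SE 0.10, limma adjusted p = 0.00147). Lpxn, or leupaxin, the relative of leukocytes and osteoclasts, had 36.0, 37.6 and 35.6 FPKM in the Pth1rΔNLS libraries, against 24.1, 31.6 and 27.3 FPKM in the WT libraries. It rose by 0.39 on the log2 scale (SE 0.11, limma adjusted p = 0.0491), and passed in 1 of the 6 fits with a library left out, that without WT 2. Pxn, paxillin itself, had 12.4, 4.84 and 15.9 FPKM in the Pth1rΔNLS libraries and 5.66, 6.18 and 5.94 FPKM in the WT libraries. Pth1rΔNLS 2 lay below every WT library and the other 2 above them, and the adjusted p was 0.289 with it and 0.0106 without it.

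The actin linkers that changed all fell. Vcl, vinculin, which binds talin and actin in loaded plaques, had 74.8, 72.9 and 79.2 FPKM in the Pth1rΔNLS libraries, against 145, 148 and 145 FPKM in the WT libraries. The WT libraries nearly coincided at about 1.93 times the Pth1rΔNLS mean (75.7 ± 3.21 FPKM in Pth1rΔNLS cells and 146 ± 1.69 FPKM in WT cells, SD, n = 3 each). Vcl fell by 0.94 on the log2 scale (SE 0.06, adjusted p = 0.000366 in limma). The gene lies on chromosome 14 at 20929398 to 21033676 (mm10, plus strand) and shares 38.7% of its exonic bases with Ap3m1 on the opposite strand, which had 12.1 to 17.8 FPKM and a log2 fold change of 0.10 (SE 0.15).

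Actn1, the alpha-actinin of stress fibres, had 158, 153 and 151 FPKM in the Pth1rΔNLS libraries, against 237, 285 and 262 FPKM in the WT libraries (log2 fold change -0.75, SE 0.08, limma adjusted p = 0.0021). Its relative Actn4 had 106 to 109 FPKM in the Pth1rΔNLS libraries and 97.6 to 149 FPKM in the WT libraries, and did not pass. Its most abundant form, Actn4-201, had 75.3 to 79.4 FPKM in the Pth1rΔNLS libraries and 85.8 to 104.7 FPKM in the WT libraries. Those values did not overlap, but the form did not pass (limma adjusted p = 0.145). Actn4-210 had 16.5 to 27.9 FPKM in the Pth1rΔNLS libraries and 0.0004 to 22.7 FPKM in the WT libraries. How reads were divided between the forms was not tested. Tns1, a tensin of fibrillar adhesions, had 5.44, 5.60 and 5.72 FPKM in the Pth1rΔNLS libraries, against 8.63, 7.17 and 8.25 FPKM in the WT libraries. It fell by 0.45 on the log2 scale (SE 0.10, limma adjusted p = 0.0256), a call that was lost without any library other than WT 2, at up to 0.0876. Tns3, the most abundant tensin, was at 66.9 ± 2.95 FPKM in Pth1rΔNLS cells and 77.5 ± 3.67 FPKM in WT cells without overlap, but did not pass (limma adjusted p = 0.0888). Tns2 overlapped between genotypes, at 4.27 ± 0.675 FPKM in Pth1rΔNLS cells and 4.62 ± 0.552 FPKM in WT cells.

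Among zyxin relatives and Ena/VASP proteins, Enah and Lpp fell. Enah, or Mena, which promotes actin filament growth, had 14.4, 16.4 and 16.1 FPKM in the Pth1rΔNLS libraries, against 35.6, 33.3 and 36.6 FPKM in the WT libraries. The groups were far apart (log2 fold change -1.12, SE 0.08, limma adjusted p = 0.000519). Its relative Vasp had 33.1, 36.6 and 39.8 FPKM in the Pth1rΔNLS libraries and 46.4, 35.6 and 46.3 FPKM in the WT libraries, and did not pass. Lpp, a zyxin relative of smooth muscle and fibroblasts, had 23.7, 20.9 and 24.0 FPKM in the Pth1rΔNLS libraries, against 28.4, 33.2 and 28.0 FPKM in the WT libraries (log2 fold change -0.37, SE 0.10, limma adjusted p = 0.0469). That call was lost whichever library was left out, at 0.0821 to 0.141.

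Zyx, zyxin itself, overlapped between genotypes, at 47.2 ± 2.12 FPKM in Pth1rΔNLS cells and 55.2 ± 9.32 FPKM in WT cells. Ajuba, a LIM protein of adhesions and junctions, had 2.62 ± 0.796 FPKM in Pth1rΔNLS cells and 5.32 ± 1.25 FPKM in WT cells without overlap, but missed the threshold (log2 fold change -0.81, limma adjusted p = 0.0508). Fblim1, or migfilin, had 16.5, 39.1 and 41.4 FPKM in the Pth1rΔNLS libraries and 39.8 to 44.6 FPKM in the WT libraries. Pth1rΔNLS 1 alone stood low, and the adjusted p was 0.392 with it and 0.677 without it.

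Of the adhesion kinases and their scaffolds, Bcar1 passed. Bcar1, or p130Cas, a substrate of Src and focal adhesion kinase, had 8.17, 9.49 and 8.86 FPKM in the Pth1rΔNLS libraries, against 15.6, 10.7 and 14.5 FPKM in the WT libraries. It fell by 0.55 on the log2 scale (SE 0.15, limma adjusted p = 0.0481). The call was lost without any library other than WT 2, at up to 0.138, and with the highest transcript alone the log2 fold change was 0.04 with an adjusted p of 0.953. Ptk2, focal adhesion kinase, overlapped between genotypes, at 15.7 ± 1.04 FPKM in Pth1rΔNLS cells and 16.8 ± 1.2 FPKM in WT cells. Ptk2b, or Pyk2, its relative in osteoclasts and macrophages, had 25.4, 33.9 and 29.1 FPKM in the Pth1rΔNLS libraries, against 24.0, 18.0 and 20.1 FPKM in the WT libraries. Those libraries did not overlap, but the adjusted p was 0.0641 (log2 fold change 0.49, SE 0.14). Src had 6.74 ± 1.07 FPKM in Pth1rΔNLS cells and 9.35 ± 1.51 FPKM in WT cells, and Nedd9, a scaffold related to Bcar1, 5.96 ± 2.73 FPKM in Pth1rΔNLS cells and 9.52 ± 2.93 FPKM in WT cells, and both overlapped.

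**Figure D4:**
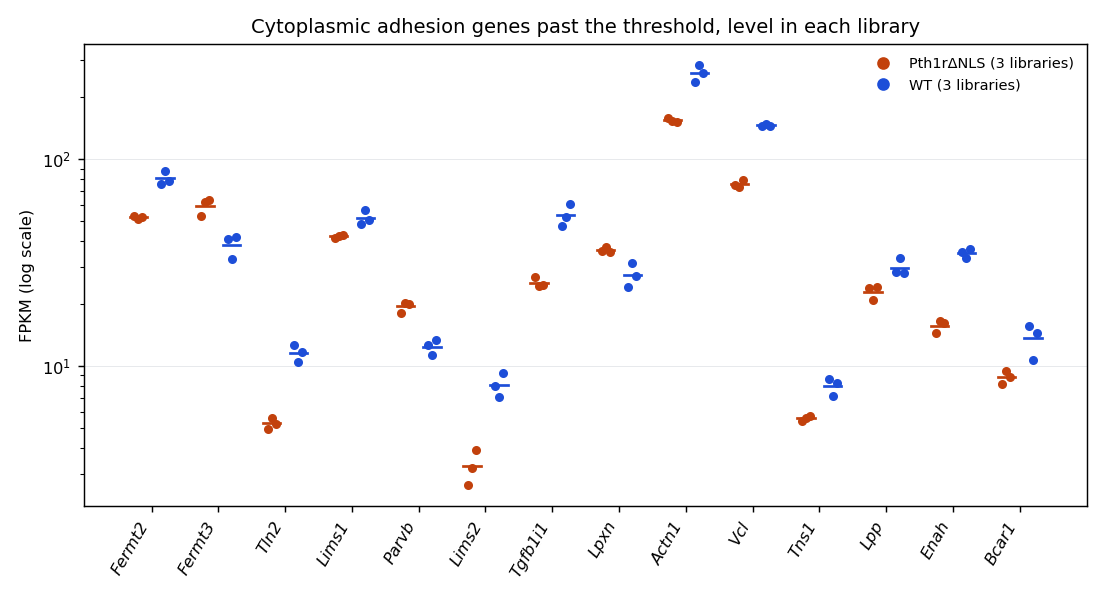
Level of the 14 cytoplasmic adhesion genes past the threshold in each library, in FPKM on a log axis, with a bar at the mean of each genotype (Pth1rΔNLS left of WT for each gene). Vcl sits at 72.9 to 79.2 FPKM in the Pth1rΔNLS libraries and 145 to 148 FPKM in the WT libraries, and Fermt3, Parvb and Lpxn are the 3 that were higher in Pth1rΔNLS cells.

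Setting relatives side by side within a library shows the change in composition without the scale of the library. These ratios were chosen with the gene values known and are given without a test. Fermt3 over Fermt2 was 0.997, 1.21 and 1.21 in the Pth1rΔNLS libraries, against 0.540, 0.373 and 0.533 in the WT libraries. Lpxn over Tgfb1i1 was 1.34, 1.55 and 1.44 in the Pth1rΔNLS libraries, against 0.506, 0.603 and 0.449 in the WT libraries, so that leupaxin RNA exceeded Hic-5 RNA in Pth1rΔNLS cells and was below it in WT cells. Itgb2 over Itgb1 averaged 0.36 ± 0.0191 in Pth1rΔNLS cells and 0.203 ± 0.0246 in WT cells.

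Tln2 over Tln1 averaged 0.0481 ± 0.0047 in Pth1rΔNLS cells and 0.117 ± 0.0076 in WT cells, and Lims2 over Lims1 0.0772 ± 0.014 in Pth1rΔNLS cells and 0.157 ± 0.029 in WT cells. Actn1 over Actn4 averaged 1.44 ± 0.0102 in Pth1rΔNLS cells and 2.29 ± 0.47 in WT cells. Ptk2b over Ptk2 averaged 1.88 ± 0.185 in Pth1rΔNLS cells and 1.23 ± 0.156 in WT cells. Each of these 7 ratios holds a gene whose own libraries did not overlap between the genotypes, so a gap in the ratio was largely set by that choice. Parvb over Parva overlapped, at 0.563 to 0.689 in the Pth1rΔNLS libraries and 0.215 to 0.737 in the WT libraries.

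**Figure D5:**
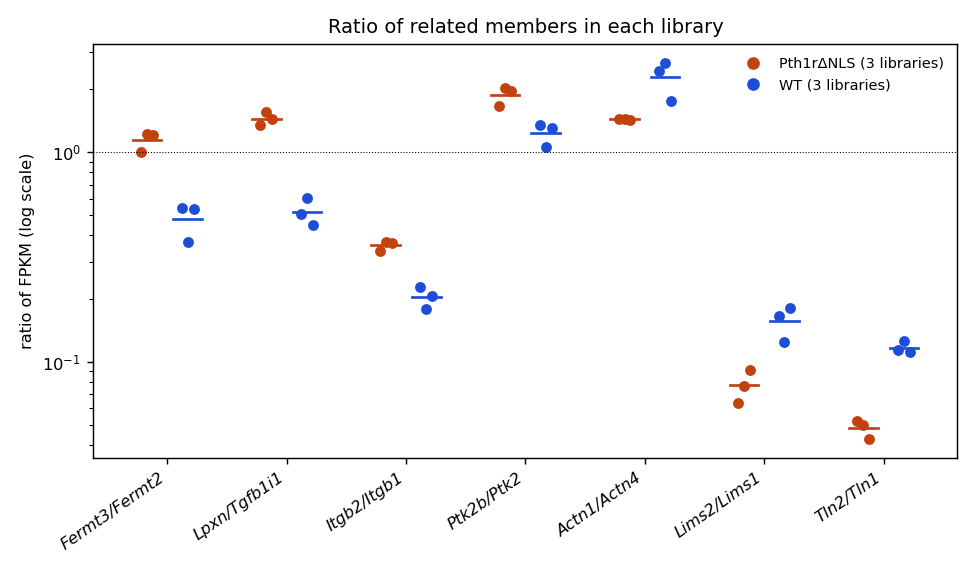
Ratio of FPKM between 7 pairs of related genes in each library on a log axis, with a bar at the mean of each genotype and a dotted line at equal levels (Pth1rΔNLS left of WT for each pair). Fermt3 over Fermt2 lies at 0.997 to 1.21 in the Pth1rΔNLS libraries and 0.373 to 0.540 in the WT libraries.

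The table lists 115 transcripts of these genes of 338 annotated, 19 genes with 1 listed transcript and 27 with several. Of 94 transcripts that passed the level filter, 3 rose and 9 fell, whereas 1.82% of all transcripts tested rose and 3.39% fell (5.21% in all). Those that rose were Itga6-201, Itgb2-201 and Parvb-201. Those that fell were Itga1-201, Itga11-201, Tln2-202, Fermt2-201, Lims2-201, Tgfb1i1-207, Vcl-201 and both Actn1 forms, Actn1-201 and Actn1-202. No gene held transcripts past the threshold in both directions, and 11 of the 21 genes past the threshold had a transcript past it in the same direction. Enah, a gene with 7 listed forms, fell as a sum while no single form passed. Its most abundant form, Enah-211, had 9.93, 8.55 and 10.3 FPKM in the Pth1rΔNLS libraries, against 22.3, 12.7 and 14.1 FPKM in the WT libraries (limma adjusted p = 0.178).

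Of 51 further adapter and signalling genes of the adhesion pathway tested, 1 rose, 12 fell and 38 did not pass, with a median log2 fold change of -0.14. Over all genes tested, 6.94% rose and 10.4% fell, with a median of -0.01. Nexn (nexilin, an actin-binding protein of muscle) had 18.5 ± 1.65 FPKM in Pth1rΔNLS cells and 44.3 ± 1.68 FPKM in WT cells. Palld (palladin, an actin-bundling protein of stress fibres) had 75.99 ± 1.55 FPKM in Pth1rΔNLS cells and 165 ± 19.7 FPKM in WT cells. Dlc1, a tensin-binding protein of focal adhesions, fell by 0.52 on the log2 scale (limma adjusted p = 0.00674). The gene that rose was Elmo1, an engulfment and motility adapter, with 20.1 ± 0.653 FPKM in Pth1rΔNLS cells and 15.5 ± 1.3 FPKM in WT cells (limma adjusted p = 0.032).

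Of 31 integrin ligand genes tested, 1 rose, 18 fell and 12 did not pass, with a median log2 fold change of -0.70, again against 6.94% of all genes tested that rose and 10.4% that fell. Thbs2, a matricellular thrombospondin, had 83.7 ± 1.68 FPKM in Pth1rΔNLS cells and 305 ± 10.7 FPKM in WT cells, and Postn, periostin, 24.5 ± 1.51 FPKM in Pth1rΔNLS cells and 106 ± 9.62 FPKM in WT cells (limma adjusted p = 9.03e-05 for Thbs2 and 0.000109 for Postn). Tgfb3, which alphav integrins can release from its latent form, had 16.1 ± 0.763 FPKM in Pth1rΔNLS cells and 57.7 ± 3.95 FPKM in WT cells, and Ccn1, a matricellular integrin ligand, 173 ± 7.4 FPKM in Pth1rΔNLS cells and 372 ± 9.17 FPKM in WT cells (limma adjusted p = 0.000113 for Tgfb3 and 0.000233 for Ccn1). Col1a1, the collagen I chain that Itga11 receptors bind, had 196 ± 23.7 FPKM in Pth1rΔNLS cells and 668 ± 145 FPKM in WT cells (limma adjusted p = 0.00156). Tgfb1, whose latent form binds alphav integrins, was the ligand gene that rose (log2 fold change 0.63, limma adjusted p = 0.0135). Fn1, fibronectin, the main Itga5 ligand, did not pass, with 381 ± 23.1 FPKM in Pth1rΔNLS cells and 430.5 ± 16.8 FPKM in WT cells. Vcam1, an Itga4 ligand, fell by 0.39 on the log2 scale (limma adjusted p = 0.0135), while Icam1, an Itgal ligand, did not pass (log2 fold change 0.36, limma adjusted p = 0.0774). The lists hold stromal and matrix genes that moved with the stromal markers given above, whose part was not tested. Col1a1 and Col1a2 stand in both the ligand list and the stromal marker list, so these lists are not independent.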

How the data were processed

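RNA-seq libraries of primary bone marrow stromal cells (3 Pth1rΔNLS, 3 WT) were prepared with an Illumina TruSeq kit, per the labels' protocols. The submitters' processing notes name HISAT2, StringTie and mm10, without their versions. The deposited table gives 1 value per transcript and library, FPKM as deposited by the authors after alignment and assembly with those tools, although its header names no unit. FPKM was taken because the values are not whole, and because multiplying them by transcript length gave totals that varied less between libraries (CV 1.49%) than their plain sums (CV 3.46%). No counts were used here, so sequencing depth is unknown.

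Of 23351 transcripts, 23300 were named through GENCODE mouse release M21 and 51 were left out, and FPKM were summed per gene. No source used here says whether counting used strand, and 15 of the 46 genes share exonic bases with another gene, so values of genes that overlap an antisense gene can hold its reads. Genes averaging 1 FPKM or more across all 6 libraries entered limma 3.58.1 (R 4.3.3; eBayes, trended prior), fitted to log2(FPKM + 1) as Pth1rΔNLS minus WT. The added 1 shrinks fold changes of low genes. P-values were adjusted over all genes, or over all transcripts, with Benjamini-Hochberg. An exact permutation test of 3 libraries against 3 cannot go below 0.1 and was therefore not used. The fit was tested on simulated data.

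Every gene past the threshold and every integrin chain at a mean of 1 FPKM or more is given by library, along with up to 4 genes of each pathway list, those of smallest p, apart from 1 that is not reported here. Other list genes given were chosen after their values were seen. The genes and lists were chosen with earlier results of these data known. Alternatives covered the pseudocount, filter, scaling, mitochondrial transcripts, trend, weights, highest transcript, replicate block and each left-out library. The removal of both libraries of extreme mitochondrial share, and the sum of Itgam and Gm49368, were added after seeing the data. Promoter windows came from RefSeq (GRCm38.p6) and exon sequences from the GENCODE transcripts.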

Additional observations from a re-analysis of the deposited data

How the results depend on the processing

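The number of genes past the threshold was 1886 over all genes and ranged from 1051 to 1712 when 1 library was left out. Genes of the set that rose ranged from 3 to 9 (8 with all libraries) and those that fell from 9 to 12 (13 with all libraries). Integrin chains that rose ranged from 2 to 5 and those that fell from 2 to 3. Cytoplasmic genes that rose ranged from 1 to 4 and those that fell from 7 to 9, and transcripts from 6 to 13. Without Pth1rΔNLS 1 and WT 1 together, which leaves 2 libraries per genotype, 618 genes passed, and of the set 2 rose and 8 fell (2 integrin chains rose, 0 cytoplasmic genes rose and 6 fell, 0 transcripts), and 10 of the 21 genes stayed past the threshold. Lims2, Parvb and Fermt3 then had adjusted p of 0.055, 0.0539 and 0.0563.

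The replicate numbers of the labels showed no sign of pairing. Deviations of same-numbered libraries from their group means correlated at -0.19, -0.07 and 0.07 over 10905 genes, and those of different-numbered libraries at -0.17 to 0.23. With 3 libraries per genotype the deviations constrain each other, so these correlations cannot decide whether the libraries were paired. The replicate block gave 792 genes, and of the set 3 that rose (2 integrin chains and 1 cytoplasmic gene), 7 cytoplasmic genes that fell and 0 transcripts. With the highest transcript per gene, 8 genes of the set fell, 6 of them cytoplasmic. With mitochondrial transcripts removed, 4 cytoplasmic genes rose and 8 fell. Array weights gave 5 integrin chains that fell, and eBayes without trend gave 7 transcripts. The causes were not tested. Of the 21 genes, 11 stayed past the threshold in all 12 processing settings, and Bcar1 was the only one of the 21 whose direction turned, to 0.0399 with the highest transcript.

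Among the integrin chains that did not pass, directions turned as follows, in log2 fold change. Itga7 turned to 0.0523 under quantile normalization and 0.0816 without Pth1rΔNLS 1 and WT 1, and ranged from -0.24 to 0.0388 when 1 library was left out. Itga9 turned to 0.0114 under quantile normalization, 0.0136 with mitochondrial transcripts removed and 0.00725 under median centring, and ranged from -0.0557 to 0.0253 when 1 library was left out. Itgam ranged from -0.46 (without WT 3) to 0.58 (without WT 2) when 1 library was left out. Itgav turned to -0.0230 with the highest transcript, and Itgb5 to 0.00484 without Pth1rΔNLS 1 and WT 1. Without counts, the depth behind low values such as those of Itga7 and Itga10 is unknown.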
